A study of Mus musculus with 2 samples.

Results

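Lymphatic endothelial cells (LECs) were 58 of the 15520 lung cells kept from 2 single-cell RNA sequencing (scRNA-seq) libraries, 12 of 3809 cells in room air and 46 of 11711 cells in hyperoxia. A cell was kept if it had 500 or more detected genes and no more than 20% of its unique molecular identifiers (UMIs, which count captured transcript molecules) from mitochondrial genes. A kept cell passed the endothelial gate with at least 1 UMI of Cdh5, Pecam1 and Cldn5 together and no UMI of Ptprc, the leukocyte gene for CD45, or of Epcam, an epithelial adhesion molecule. An endothelial cell was called a LEC with at least 3 UMIs of Mmrn1, Prox1 and Reln together and at least 2 of these 3 genes detected. These UMIs chose the cells, so the levels of the 3 genes are given below as a description only.

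The lungs came from wild-type mice, C57BL/6 in the labels and C57BL/6J in the study's methods, at postnatal day (P)14, 2 weeks of age, reared from P0 in air of 21% O2 (room air) or of 80% O2 (hyperoxia), the latter an exposure used to model bronchopulmonary dysplasia. The cells were dissociated whole lung cells with no sort for endothelium, and the study used them to ask how hyperoxia alters the lung's cells. Each library pooled the lungs of 8 mice, so each condition was 1 library. With 1 library per condition no difference could be tested, the spread between mice is unknown, and every interval below is a 95% interval for counting error only. Animal, library and oxygen level cannot be told apart.

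LECs line the vessels that return tissue fluid, lipids and immune cells from an organ to the blood. They arise mainly from veins under the transcription factors Sox18, Nr2f2 and Prox1, and they survive on signals of Vegfc through its receptor Flt4. In the lung, lymphatics run along airways and larger vessels, blind-ended initial vessels take up fluid and carry the chemokine Ccl21 that draws dendritic cells and T cells in, and collecting vessels with valves move the lymph onward.

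LECs made up 0.315% (0.163 to 0.550) of the kept room air cells and 0.393% (0.288 to 0.524) of the kept hyperoxia cells. The difference of 0.0777 percentage points ranged from -0.179 to 0.278 in its counting interval, so a difference in abundance was not detectable at this depth. As a share of the endothelial gate, LECs were 0.972% (0.503 to 1.69) of 1234 cells in room air and 1.23% (0.902 to 1.64) of 3741 cells in hyperoxia. That difference was 0.257 percentage points (-0.534 to 0.878). Fewer cells captured and fewer cells in the lung cannot be told apart in dissociated tissue.

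The whole matrices held 39593888 UMIs for room air and 111934936 for hyperoxia over 27998 genes, and the kept cells had medians of 8299 and 8009 UMIs. The LECs held 170396 UMIs in room air, with 1963 to 64102 per cell and a median of 9957, and 451658 UMIs in hyperoxia, with 1169 to 27540 per cell and a median of 8588. The deepest room air LEC alone gave 37.6% of the room air LEC UMIs, against 6.10% for the deepest hyperoxia LEC. Summed room air levels therefore rest in large part on a single cell, and values without the deepest LEC of each library, or averaged with equal weight for each cell, stand beside the results they change. The median mitochondrial share of the LECs was 2.92% in room air LECs and 2.87% in hyperoxia. The libraries shared 17 cell barcodes, none of them a LEC.

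Some LECs carried genes of other cells. In 6 cells the UMIs of Mfap4, Gucy1a3 and Pde5a together, of Pf4 or of Flt1 exceeded those of the 3 gate genes, a criterion chosen after the values were seen. In room air, 1 cell held 196 UMIs of Mfap4 and 36 of Col1a1, genes of stromal matrix, and another held 94 of Gucy1a3 and 52 of Pde5a, genes of contractile mural cells. In hyperoxia, 4 cells held 6 to 30 UMIs of Flt1, the VEGF receptor of blood endothelium, and 1 of these also held 76 UMIs of Pf4, 63 of Vwf and 24 of Itga2b, genes of megakaryocytes. Simulated doublets removed 0 of the 12 room air LECs and 1 of the 46 hyperoxia LECs. Values without these 6 mixed cells, which leave 10 and 42 LECs, are given for a part of the results.

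Mmrn1, which encodes the secreted protein multimerin, had 213 UMIs in all 12 room air LECs and 1056 UMIs in 45 of 46 hyperoxia LECs. Its level over summed UMIs was 1250 counts per 1000000 UMIs (CPM) in room air LECs and 2338 CPM in hyperoxia. Prox1, the transcription factor that fixes lymphatic identity, stood at 1778 CPM in room air LECs and 1154 CPM in hyperoxia LECs, a log2 ratio of hyperoxia to room air of -0.62 (-0.83 to -0.42). The deepest room air LEC held 67.3% of the room air Prox1 UMIs, and without the deepest LEC of each library the log2 ratio was 0.39. Prox1 thus had no direction that held across these ways of summing. Reln, the extracellular glycoprotein reelin, stood at 540 CPM in room air LECs and 414 CPM in hyperoxia LECs, a log2 ratio of -0.38 (-0.75 to -0.01). In GRCm38 (mm10) Mmrn1 lies at chr6:60924976-60989378 on the plus strand, Prox1 at chr1:190118035-190170714 on the minus strand and Reln at chr5:21884454-22344702 on the minus strand.

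All 12 room air LECs had at least 6 UMIs of the 3 genes, as did 41 of the 46 in hyperoxia, and the other 5 hyperoxia LECs were at the limit with 3. Of these 5 cells 4 were the mixed hyperoxia cells, without Ccl21a, and the remaining cell held 3 Ccl21a UMIs. Just outside, no endothelial cell had 2 UMIs from 2 of the genes, while 5 room air and 13 hyperoxia cells had 3 or more UMIs of a single gate gene. None of those cells held a Ccl21a UMI.

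Ccl21a, which was not used in the gate, encodes the chemokine that guides cells bearing the receptor Ccr7 into lymphatics. It was detected in 10 of 12 room air LECs (83.3%, 51.6 to 97.9) and in 29 of 46 hyperoxia LECs (63.0%, 47.5 to 76.8). Among the other endothelial cells, those of the gate with no UMI of Mmrn1, Prox1 or Reln, it was detected in 0.681% of 1174 cells in room air and 1.16% of 3542 in hyperoxia, at median depths of 7863 and 8822.5 UMIs. B cells, which should lack it, had shares of 0.629% and 1.05% at median depths of 4202 and 2845 UMIs. Ccl21a therefore marked most LECs and stood at background elsewhere in the endothelium, apart from a few hyperoxia cells.

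The Ccl21a level over summed UMIs was 6679 CPM (6296 to 7078) in room air LECs and 6558 CPM (6324 to 6799) in hyperoxia LECs, against 0.760 and 18.6 CPM in the other endothelial cells. Per cell, Ccl21a ran from 0 through a median of 66.5 to 530 UMIs in room air LECs and from 0 through a median of 11.5 to 415 in hyperoxia. The single-cell ranges overlapped throughout. The log2 ratio of the sums was -0.03 (-0.13 to 0.07), and -0.74 when each cell had equal weight. The LECs held 62.3% of all Ccl21a UMIs of the kept room air cells and 61.1% of those in hyperoxia.

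Much of the remaining Ccl21a signal came from few cells. In room air, 2 cells outside the gate had at least 10 Ccl21a UMIs, and both carried all 3 gate genes but were left out for a single UMI of Epcam or Ptprc. In hyperoxia, 7 cells outside the gate had at least 10, of which 1 was left out for 13 Ptprc UMIs, 3 had at least 10 UMIs of Col1a2, a fibroblast collagen, and 3 had at least 10 UMIs of Glycam1, a mucin made by high endothelial venules. Glycam1 at that level was found in 5 of 11711 hyperoxia cells (0.0427%) and in 0 of 3809 room air cells, which allows a share of up to 0.0788%. No LEC had a Glycam1 UMI.

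Ccl21a lies at chr4:42772860-42773993 on the minus strand, and has near-identical copies nearby, so its reads could be split among them. Gm21541, at chr4:41903610-41904743 on the plus strand, has the same exon structure and differed from Ccl21a at 5 of 795 bases compared from the start codon to the transcript end, 2 of them in the coding sequence. The 2 coding differences are T84A and C194T, with the Ccl21a base before the position and the Gm21541 base after it, counted from 1 at the A of the start codon. The stretches around them are shown because they are all that separates the coding sequences. They lie in exon 2 (Ccl21a chr4:42773717-42773763, Gm21541 chr4:41903840-41903886) and exon 3 (Ccl21a chr4:42773513-42773548, Gm21541 chr4:41904055-41904090), and the capital marks the base that differs.
Ccl21a, exon 2: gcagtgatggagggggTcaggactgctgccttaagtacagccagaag
Gm21541, exon 2: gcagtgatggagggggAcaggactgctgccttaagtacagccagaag
Ccl21a, exon 3: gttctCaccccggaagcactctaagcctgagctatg
Gm21541, exon 3: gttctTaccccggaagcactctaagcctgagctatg

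Of the 5 differences, 3 fell in the last 300 bases of the transcript, the part a 3' library reads. Gm21541 had 11 UMIs in 5 room air LECs and 22 UMIs in 8 hyperoxia LECs, and none in the other endothelial cells. Ccl21b (ENSMUSG00000095675), Gm10591 and Gm13304 carry the same 2 coding differences and had 0 UMIs in the LECs. The values for Ccl21a thus stand for the Ccl21 copies that the counting could place.

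The other markers fixed for checking the label were present. Flt4, the receptor for Vegfc, was detected in all 12 room air LECs and in 43 of 46 hyperoxia LECs, at 505 and 680 CPM against 20 and 14.2 CPM in all other kept cells. Lyve1, a hyaluronan receptor of initial lymphatics, was detected in 8 and 36 LECs, and Pdpn, the membrane mucin podoplanin, in 9 and 22. Nrp2, a coreceptor for Vegfc, was detected in 12 and 36 LECs, and Nts, the peptide neurotensin, in 3 and 21. Among the other endothelial cells, Lyve1 was detected in 54.6% in room air and 56.0% in hyperoxia, against 66.7% and 78.3% of LECs. By detection Lyve1 therefore separated LECs little. Flt4 was detected in 32.1% and 22.8% of the other endothelial cells, and Nrp2 in 12.9% and 16.9%. Pdpn was detected in at most 4.07% of them and Nts in at most 0.282%. The label of LECs stood in both libraries on the markers other than Lyve1, and the cells varied in which markers they carried.

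**Figure D1:**
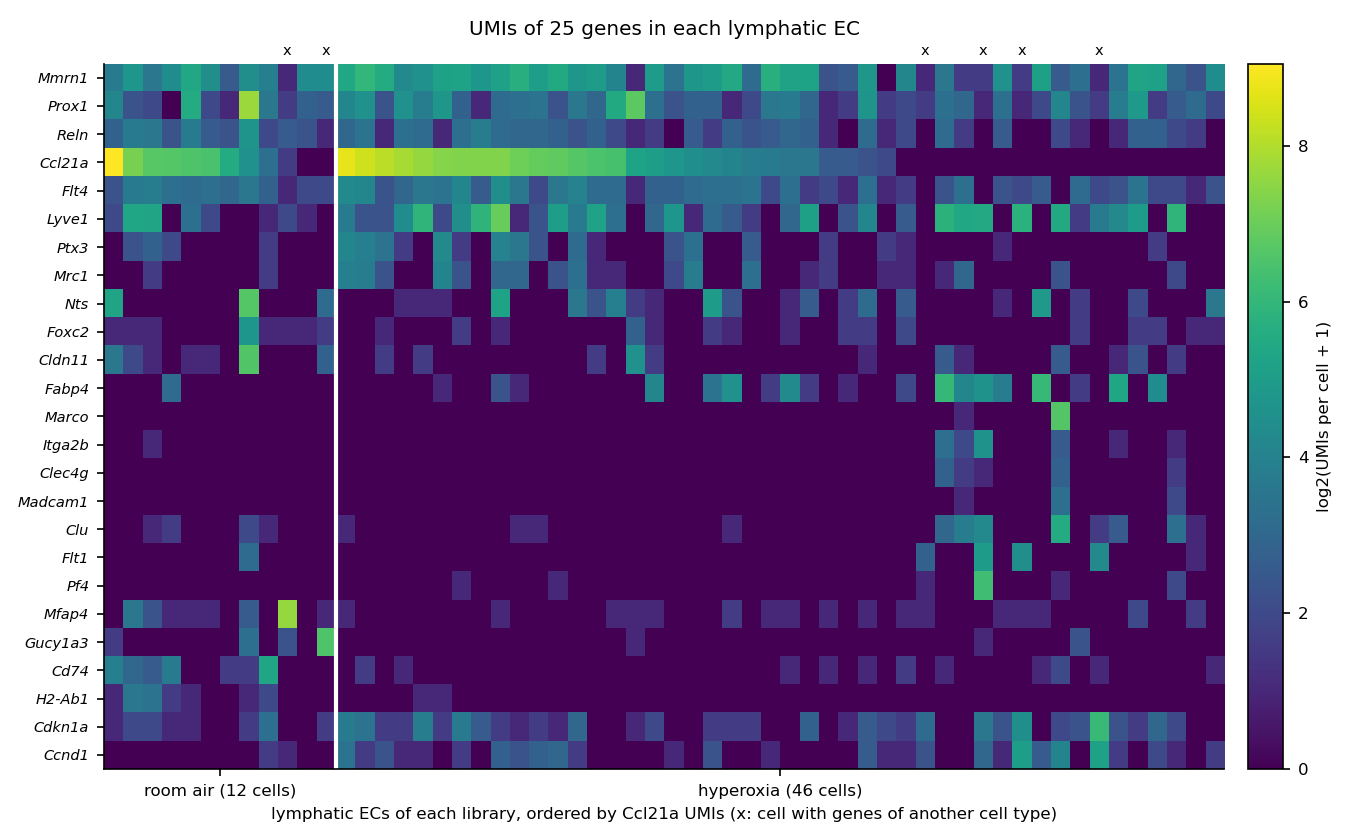
Heatmap of the 58 LECs (columns, room air left and hyperoxia right, ordered by Ccl21a) against 25 marker genes (rows), coloured by log2 of the UMIs in the cell plus 1, with a cross on the 6 mixed cells. Ccl21a was at 0 in 2 of 12 room air LECs and 17 of 46 hyperoxia LECs, where Mmrn1 and Flt4 were still detected in most cells.

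Genes were compared where the mean of the 2 CPM values was at least 100, which 1921 genes met. Of these, 168 (8.75%) were at least 2-fold higher in LECs than in the other endothelial cells in both libraries and 55 (2.86%) were at least 2-fold lower in both. Within room air these counts were 262 (13.6%) higher and 105 (5.47%) lower, and within hyperoxia 218 (11.3%) and 112 (5.83%). The cells were chosen by their expression, so these ratios describe them and were not tested. The largest ratios after Ccl21a included Nts, at 857 CPM in room air LECs and 383 CPM in hyperoxia LECs against 0 and 0.527 CPM in the other endothelial cells. Fgl2, a fibrinogen-like immune regulator, stood at 1168 and 1568 CPM against 17.2 and 15.8 CPM. Fxyd6, a regulator of the sodium pump, stood at 945 and 458 CPM against 3.33 and 5.24 CPM.

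Homeobox genes of the Hoxd cluster were among the 20 leading genes. Hoxd8 stood at 106 and 99.6 CPM in LECs against 0.0950 and 0.372 CPM in the other endothelial cells, and Hoxd9 at 82.2 and 95.2 CPM against 0 and 0.0620 CPM. Tbx1, a T-box factor needed for lymphatic growth, stood at 106 and 88.6 CPM against 0.0950 and 0.434 CPM. These positional and lineage factors were near 0 in the other endothelial cells of both libraries. Stab2, a scavenger receptor for hyaluronan, stood at 88.0 and 206 CPM against 0.0950 and 0.341 CPM, and Ptx3, a secreted pattern recognition protein, at 88.0 and 283 CPM against 0.190 and 0.620 CPM. Thy1, a cell surface glycoprotein of lymphatics, stood at 182 and 246 CPM against 1.05 and 1.74 CPM. The other leading genes were Hoxd4, Cldn11, Dtx1, Slc45a3, Klrb1f, Apba2, Ttc9, Gm21541, 1110032F04Rik and 1810008I18Rik.

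Between conditions, 104 of the 1921 genes (5.41%) were at least 2-fold higher in hyperoxia LECs and 117 (6.09%) at least 2-fold lower, with a median log2 ratio of 0.01. The same genes in the other endothelial cells gave 38 (1.98%) higher and 20 (1.04%) lower. The other endothelial cells were many more, so their sums have less counting error, and the counts are not comparable as effects of oxygen. A gene could also reach the mean of 100 CPM through 1 library alone, which partly fixed the direction of its ratio.

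**Figure D2:**
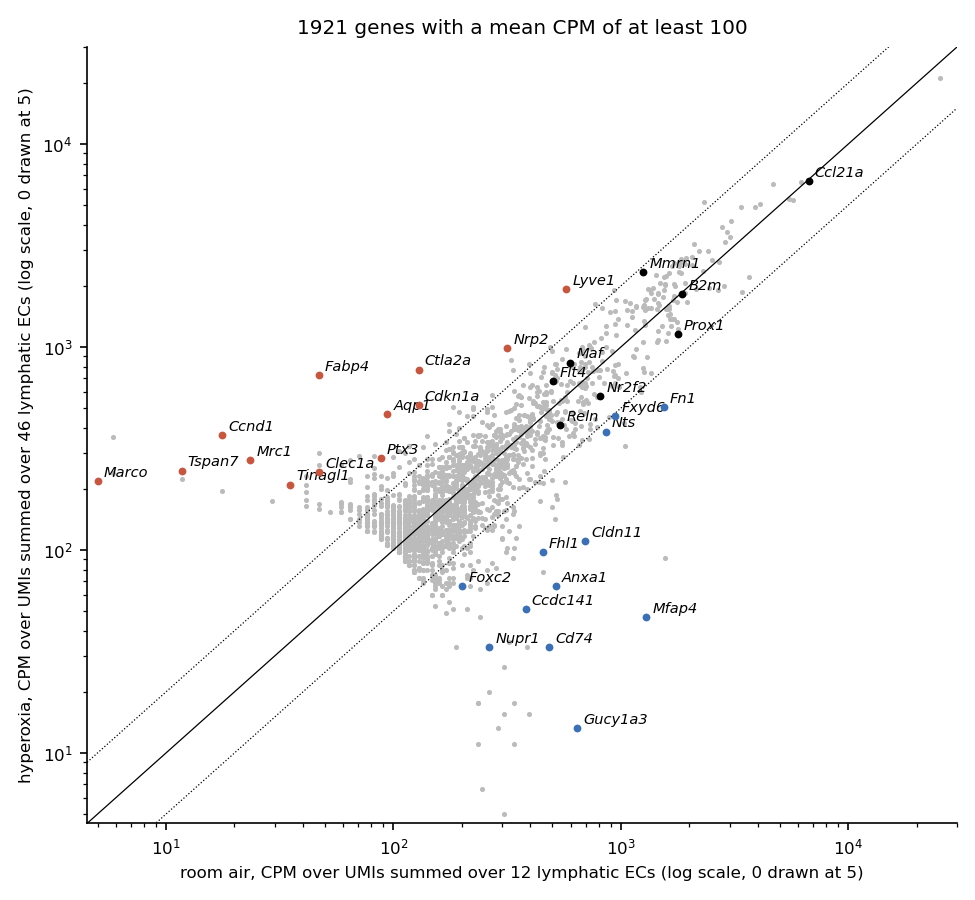
Level of 1921 genes in room air LECs (x axis, CPM, log scale) against hyperoxia LECs (y axis, CPM, log scale), with dotted lines at 2-fold and levels of 0 drawn at 5 CPM. Of these genes 104 lie above the upper line and 117 below the lower line, each group being 1 library.

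The list of lymphatic identity factors had 13 members, of which 8 reached 100 CPM. None was at least 2-fold higher in hyperoxia, 1 was at least 2-fold lower, and the median log2 ratio was -0.46, against 0.01 for all genes tested. Without the deepest LEC of each library the median was -0.13, and 6 of the 8 were at least 2-fold above the other endothelial cells in both libraries. Maf, a transcription factor of lymphatic maturation, stood at 599 CPM in room air LECs and 837 CPM in hyperoxia. Sox18, which switches on Prox1 in the embryo, had the largest ratio of the list, at 93.9 and 179 CPM, a log2 ratio of 0.93 (0.15 to 1.81). Nr2f2, the venous factor that acts with it, stood at 810 and 573 CPM.

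Foxc2, the forkhead factor of collecting vessels and valves, was the member at least 2-fold lower, at 200 CPM in room air LECs and 66.4 CPM in hyperoxia. The deepest room air LEC held 76.5% of its room air UMIs, and the log2 ratio of -1.59 was -0.09 without the deepest LEC of each library. Setting the deepest cells aside left 1 member past 2-fold, Gata2, a factor of valve development singled out after its values were seen. Gata2 stood at 158 and 117 CPM with 85.2% of its room air UMIs in a single cell, and its log2 ratio of -0.43 (-1.13 to 0.29) became 1.65 without the deepest LEC of each library and -1.21 without the 6 mixed cells.

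Of the 20 lymphatic surface and secreted markers, 19 were tested, 4 were at least 2-fold higher in hyperoxia and 3 at least 2-fold lower, with a median log2 ratio of 0.20 and of -0.02 without the deepest LEC of each library. Of the 19, 15 were at least 2-fold above the other endothelial cells in both libraries. Mrc1, the mannose receptor of initial lymphatics, had the largest ratio of the list. It had 4 UMIs in 2 of 12 room air LECs and 125 UMIs in 22 of 46 hyperoxia LECs.

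The Mrc1 level was 23.5 CPM (6.4 to 60.1) in room air LECs and 277 CPM (230 to 330) in hyperoxia LECs, a log2 ratio of 3.56 (2.17 to 5.46). Per cell it reached 2 UMIs in room air LECs and 16 in hyperoxia, with medians of 0 in both, so the ranges overlapped at 0. The share of LECs with a UMI was 16.7% (2.09 to 48.4) and 47.8% (32.9 to 63.1), against 2.53% and 2.47% of stromal cells at median depths of 13487.5 and 11090.0 UMIs. After thinning each cell to 2000 UMIs, which left out 1 room air and 2 hyperoxia LECs, the shares were 9.09% (0.230 to 41.3) and 31.8% (18.6 to 47.6). These intervals overlapped, while the intervals of the CPM levels did not. Mrc1 in the other endothelial cells was at 3.52 and 4.16 CPM, a log2 ratio of 0.24 (-0.29 to 0.81).

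Lyve1 stood at 575 CPM (467 to 701) in room air LECs and 1935 CPM (1809 to 2068) in hyperoxia LECs, a log2 ratio of 1.75 (1.45 to 2.07). Per cell it ran from 0 through a median of 2 to 40 UMIs in room air LECs and from 0 through a median of 7.5 to 123 in hyperoxia. The ranges overlapped in most cells, and with equal weight for each cell the log2 ratio was 0.80. In the other endothelial cells it was at 461 and 641 CPM, and among them in venous cells, gated by Slc6a2, at 917 and 2035 CPM. Ptx3 had a log2 ratio of 1.69 (0.91 to 2.57), from 4 of 12 and 19 of 46 LECs.

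Fxyd6 and Nts were lower in hyperoxia over summed UMIs, with log2 ratios of -1.04 (-1.35 to -0.74) and -1.16 (-1.49 to -0.83). For Nts, 68.5% of the room air UMIs came from the deepest LEC, and the log2 ratio was -0.09 without the deepest LEC of each library. For Fxyd6 the same value was -0.84. Rassf9 had the smallest ratio of the list, at 188 and 33.2 CPM, with 78.1% of its room air UMIs in that cell. Pdpn stood at 141 and 126 CPM, a log2 ratio of -0.16 (-0.87 to 0.59), and Thy1 had a log2 ratio of 0.43 (-0.15 to 1.06).

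**Figure D3:**
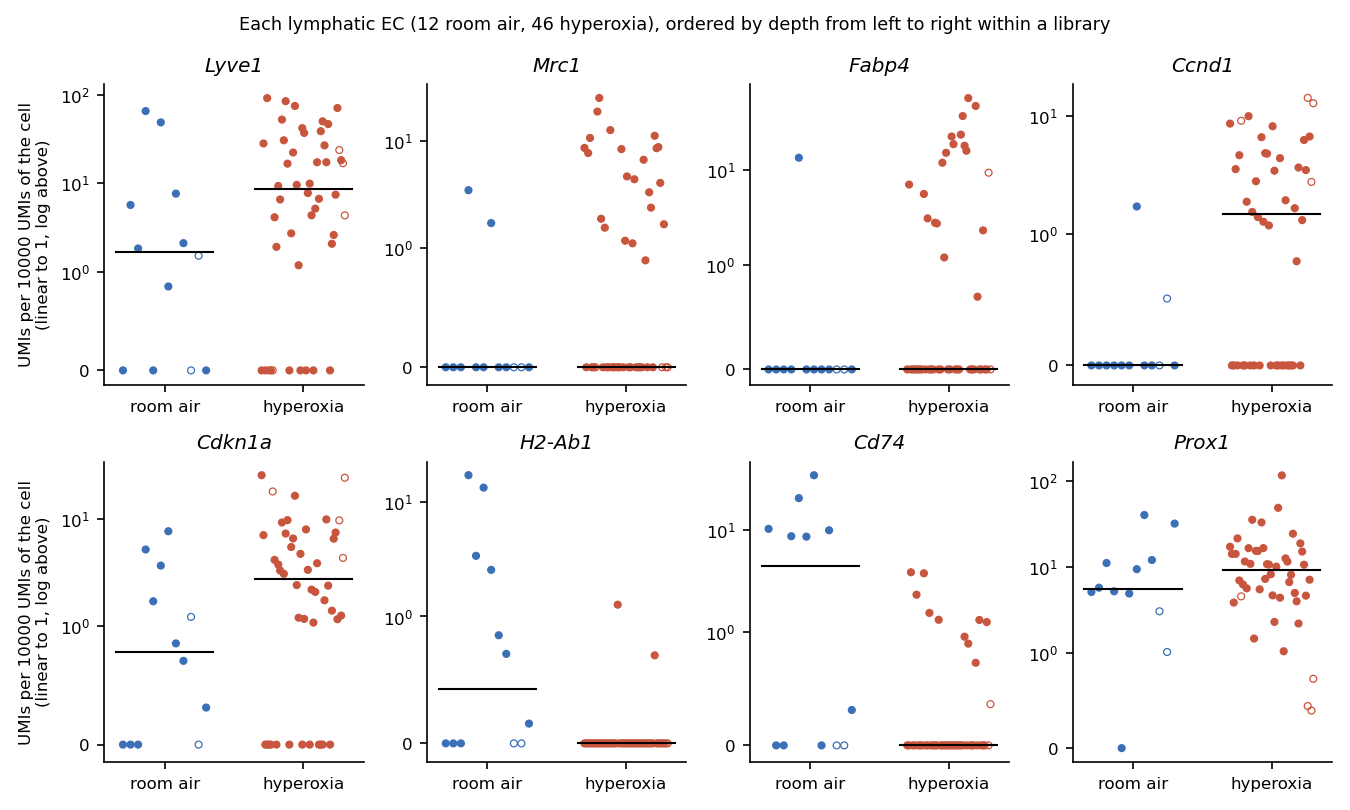
Levels of 8 genes in each LEC (points, UMIs per 10000 UMIs of the cell, on a scale linear to 1 and logarithmic above), in room air (12 cells) and hyperoxia (46 cells), with open points for the 6 mixed cells and a bar at the median. Mrc1 was detected in 2 and 22 cells and H2-Ab1 in 7 and 2 cells, and every gene had overlapping cells in the 2 libraries.

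Collecting vessel and valve genes had 11 of 15 members tested, with 1 at least 2-fold higher in hyperoxia and 4 at least 2-fold lower. Their median log2 ratio was -0.53, but -0.09 without the deepest LEC of each library and 0.06 with equal weight for each cell. Without the 6 mixed cells it was -1.02, with 6 members at least 2-fold lower. Fn1, the matrix protein of valve leaflets, stood at 1543 CPM in room air LECs and 505 CPM in hyperoxia LECs, a log2 ratio of -1.61, and of -1.05 without the deepest LEC of each library. Gja1, the gap junction protein connexin 43, had the largest ratio, at 176 and 387 CPM. Cldn11, a claudin that marks valve cells, had the smallest, at 698 and 111 CPM, with 80.7% of the room air UMIs from a single cell. Gja4, the gap junction protein connexin 37, stood at 317 and 102 CPM, with 77.8% from that cell.

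A combined valve profile was rare in both libraries. A single room air LEC, the deepest, had at least 5 UMIs of both Foxc2 (26) and Cldn11 (96), together with 204 of Prox1 and 100 of Nts. A single hyperoxia LEC had 6 of Foxc2, 23 of Cldn11 and 108 of Prox1. That is 8.33% (0.211 to 38.5) and 2.17% (0.0550 to 11.5) of LECs, a difference not detectable with these numbers.

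Genes of the VEGF, adrenomedullin and TIE pathway guide lymphatic growth and junction maturation. Of 28 members, 14 were tested, 4 were at least 2-fold higher in hyperoxia and 1 at least 2-fold lower, with a median log2 ratio of 0.40 and of -0.04 without the 6 mixed cells, when 1 was higher and 2 were lower. Nrp2 stood at 317 CPM (238 to 413) in room air LECs and 985 CPM (896 to 1081) in hyperoxia LECs, a log2 ratio of 1.64 (1.23 to 2.07). Its per-cell medians were 3.5 and 5 UMIs, with maxima of 13 and 65, and with equal weight for each cell the log2 ratio was 0.41. Most cells thus overlapped, and a few hyperoxia cells held much of the Nrp2 signal. Flt4 had a log2 ratio of 0.43 (0.08 to 0.79), and of -0.42 with equal weight for each cell.

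Ramp2, the partner of the adrenomedullin receptor, stood at 722 and 1025 CPM, a log2 ratio of 0.51 (0.22 to 0.80). Adm, which encodes adrenomedullin itself, stood at 305 and 15.5 CPM, but 96.2% of its room air UMIs came from a single cell. Kdr, a VEGF receptor also found in blood vessels, stood at 616 and 799 CPM. Nrp1, a coreceptor of blood endothelium, had the largest ratio, at 46.9 and 299 CPM in 4 of 12 and 9 of 46 LECs, a log2 ratio of 2.67 (1.65 to 3.91). Without the 6 mixed cells it was -0.15, so the Nrp1 difference rested on the cells with blood endothelial genes.

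Leukocyte trafficking genes had 4 of 24 members tested, of which 2 were at least 2-fold higher in hyperoxia and none at least 2-fold lower. S1pr1, the receptor for sphingosine 1-phosphate, stood at 194 and 476 CPM, a log2 ratio of 1.30 (0.76 to 1.87). Without the 6 mixed cells and the deepest room air LEC it was -0.02. Icam2, an adhesion molecule for leukocytes, stood at 99.8 and 239 CPM. Without the 6 mixed cells no member of the list was past 2-fold. Of members below the level of the test, Icam1, an adhesion molecule induced by inflammation, stood at 23.5 and 115 CPM, and Il7, a survival cytokine for lymphocytes made by LECs, at 64.6 and 59.8 CPM.

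Junction genes had 7 of 15 members tested and none past 2-fold in either direction, with a median log2 ratio of 0.26. Cldn5, a tight junction claudin, stood at 1913 and 2061 CPM, a log2 ratio of 0.11 (-0.08 to 0.29). Cdh5, the adherens junction protein VE-cadherin, stood at 522 and 775 CPM, and Tjp1, a tight junction scaffold, at 288 and 252 CPM. Cdh5 and Cldn5 were part of the endothelial gate. In the reelin pathway, 2 of 6 members were tested and neither was past 2-fold, with Itgb1, the integrin beta 1 chain, at 810 and 766 CPM.

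Fgfr1, the receptor at the centre of the study, had 18 UMIs in 8 of 12 room air LECs and 61 UMIs in 29 of 46 hyperoxia LECs. Its level was 106 CPM in room air LECs and 135 CPM in hyperoxia LECs, a log2 ratio of 0.35 (-0.42 to 1.20). Per cell it ran from 0 through a median of 1 to 6 UMIs in both libraries, so the cells overlapped fully. In the other endothelial cells it was at 55.0 and 93.2 CPM, a log2 ratio of 0.76, which lies inside the LEC interval. A change in Fgfr1 was not detectable in LECs at this depth.

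Fgfr3, another FGF receptor of lymphatics, had 10 UMIs in 3 room air LECs and 6 UMIs in 6 hyperoxia LECs. The room air UMIs all lay in the mixed cells, with 6 and 1, and in the deepest LEC, with 3. The Fgfr3 level was 58.7 and 13.3 CPM in LECs, a log2 ratio of -2.14 (-3.89 to -0.54), which thus describes these cells. In the other endothelial cells it was 43.8 and 114 CPM, a log2 ratio of 1.38. Without the 6 mixed cells the LEC interval was -5.64 to 1.07. The list of FGF receptors and ERK feedback genes had 3 of 15 members tested, none past 2-fold, with a median log2 ratio of 0.20. Without the deepest LEC of each library the median was 1.21 and 2 of the 3 were at least 2-fold higher, and without the 6 mixed cells 1 was at least 2-fold lower. Ier3, an early target of ERK signalling, stood at 299 and 266 CPM, a log2 ratio of -0.17, which became 1.5 without the deepest LECs, as 86.3% of its room air UMIs lay in 1 cell, and -1.87 without the mixed cells. Dusp6, a phosphatase that restrains ERK, stood at 147 and 168 CPM, a log2 ratio of 0.20 (-0.47 to 0.91), and of 1.21 without the deepest LECs.

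The BMP and TGF-beta pathway had 9 of 18 members tested, 1 at least 2-fold higher in hyperoxia and none lower, with a median log2 ratio of 0.10. Eng, the coreceptor endoglin, was the higher member, at 211 and 456 CPM, a log2 ratio of 1.11 (0.59 to 1.66). It was 0.70 without the 6 mixed cells, 0.86 without the deepest LEC of each library and 0.44 with equal weight for each cell, so no member of the list was past 2-fold under these settings. Ltbp4, a binding protein of latent TGF-beta, stood at 411 and 527 CPM. Id3, a target of BMP signalling, stood at 552 and 443 CPM.

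Fatty acid use is a process on which lymphatic growth depends. Of 14 members of this list 3 were tested, 2 were at least 2-fold higher in hyperoxia, and the median log2 ratio was 2.1, that of Cd36. In the other endothelial cells the same list had a median of 0.06. The 2 higher members were Fabp4 and Cd36, both under 100 CPM in room air LECs. They reached the mean of 100 CPM through hyperoxia alone, so they could be counted only as higher. With 2 of 3 directions fixed, the sign of the LEC median was fixed as well, so it is no evidence of a difference in the list. The list median was 1.34 without the 6 mixed cells and 1.22 without the deepest LEC of each library, with 2 members past 2-fold in each case. Fabp4, a fatty acid binding protein, had 8 UMIs in 1 of 12 room air LECs and 329 UMIs in 19 of 46 hyperoxia LECs. Its level was 46.9 and 728 CPM, a log2 ratio of 3.96 (2.96 to 5.18), and it was 3.78 without the 6 mixed cells.

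The per-cell maxima of Fabp4 were 8 and 66 UMIs with medians of 0, so the cells overlapped at 0. The shares of LECs with a UMI were 8.33% (0.211 to 38.5) and 41.3% (27.0 to 56.8), against 2.19% and 6.76% of stromal cells. The other endothelial cells had Fabp4 at 54.1 and 148 CPM. Cd36, a fatty acid uptake receptor, stood at 64.6 and 277 CPM, a log2 ratio of 2.1 (1.21 to 3.14). Hadha, an enzyme of beta oxidation, stood at 123 and 93.0 CPM, a log2 ratio of -0.41 (-1.19 to 0.42).

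The p53 targets had 3 of 14 members tested, and all 3 were at least 2-fold higher in hyperoxia, with a median log2 ratio of 2, of 1.27 without the 6 mixed cells and of 1.25 without the deepest LEC of each library. Among them Gdf15 reached the mean of 100 CPM through hyperoxia alone, so it could be counted only as higher. Cdkn1a, the cell cycle inhibitor p21, stood at 129 CPM (80.9 to 195) in room air LECs and 516 CPM (452 to 587) in hyperoxia LECs, a log2 ratio of 2 (1.37 to 2.70). It ran per cell from 0 through a median of 1 to 9 UMIs in room air LECs and from 0 through a median of 2 to 67 in hyperoxia. The 67 UMIs lay in the deepest hyperoxia LEC, a mixed cell, and the other mixed hyperoxia cells held 8, 11 and 22. The log2 ratio was 1.06 (0.38 to 1.80) without the deepest LEC of each library. The share of LECs with a Cdkn1a UMI was 66.7% in room air and 73.9% in hyperoxia. After thinning each cell to 2000 UMIs the shares were 45.5% and 27.3%, and after thinning to 1000 UMIs 25% and 30.4%. Their intervals overlapped at each depth, so the shares had no direction that held. Cdkn1a in the other endothelial cells was at 126 and 1078 CPM, a log2 ratio of 3.1 (3.02 to 3.18), above the LEC interval. The room air levels were alike, the hyperoxia level was lower in LECs, and the difference between the cell types was not tested.

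Bax, a promoter of apoptosis, stood at 106 and 306 CPM, a log2 ratio of 1.53 (0.82 to 2.33), detected in 10 of 12 and 38 of 46 LECs. Gdf15, a stress-induced secreted factor, had 3 UMIs in 1 room air LEC and 88 UMIs in 8 hyperoxia LECs, a log2 ratio of 3.47 (1.87 to 5.77). A single hyperoxia LEC held 55.7% of the hyperoxia Gdf15 UMIs, and the room air UMIs all lay in the deepest LEC. Mdm2, a p53 target below the level of the test, stood at 58.7 and 57.6 CPM. The p53 targets were thus not uniform in LECs.

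Of 20 NRF2 and antioxidant genes, 5 were tested, all 5 had log2 ratios above 0, and 1 was at least 2-fold higher, with a median of 0.70. Of all 1921 genes tested 5.41% were at least 2-fold higher, with a median of 0.01. Prdx1, a peroxiredoxin, stood at 511 and 828 CPM, a log2 ratio of 0.70 (0.36 to 1.05). Sod1, the cytosolic superoxide dismutase, was the higher member, at 64.6 and 166 CPM, a log2 ratio of 1.36, and of 0.96 without the deepest LEC of each library, when no member was past 2-fold. Sod1 reached the mean of 100 CPM through hyperoxia alone, so it could be counted only as higher. Prdx6, another peroxiredoxin, stood at 135 and 144 CPM. In the other endothelial cells the median of the list was 0.44.

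Interferon response genes had 5 of 22 members tested and none past 2-fold, with a median log2 ratio of 0.18, and of -0.33 without the deepest LEC of each library. Ifitm3, a membrane antiviral factor, stood at 1455 and 1652 CPM, Bst2, the tethering factor tetherin, at 264 and 401 CPM, and Psmb8, a subunit of the immunoproteasome, at 170 and 124 CPM. Below the level of the test, Gbp4, a guanylate binding protein induced by interferon gamma, had 13 UMIs in room air LECs and 3 in hyperoxia LECs, a log2 ratio of -3.52 (-5.97 to -1.66). MHC class I genes had 6 of 7 members tested, all with log2 ratios below 0 and none past 2-fold, with a median of -0.36. H2-D1, a class I heavy chain, stood at 1784 and 1224 CPM, and B2m, the class I light chain, at 1855 and 1829 CPM.

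MHC class II genes, which LECs can carry and which present antigen to helper T cells, were in no list and were singled out after their values were seen. H2-Ab1 had 29 UMIs in 7 of 12 room air LECs and 2 UMIs in 2 of 46 hyperoxia LECs. Its level was 170 CPM (114 to 244) in room air LECs and 4.43 CPM (0.536 to 16.0) in hyperoxia LECs, a log2 ratio of -5.26 (-8.38 to -3.28). Per cell it ran from 0 through a median of 1 to 11 UMIs in room air LECs and from 0 through a median of 0 to 1 in hyperoxia, so only cells at 0 or 1 were common to both libraries. In room air 2 LECs held 11 and 10 of the 29 UMIs, and the other positive LECs held 1 to 3 each. The room air level thus rested mostly on 2 cells.

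The share of LECs with H2-Ab1 was 58.3% (27.7 to 84.8) in room air LECs and 4.35% (0.531 to 14.8) in hyperoxia, against 10.3% and 7.48% of stromal cells at greater median depth. The hyperoxia share was therefore at background and the room air share above it. After thinning to 2000 UMIs the shares were 45.5% (16.7 to 76.6) and 2.27% (0.0575 to 12). H2-Eb1 stood at 141 and 4.43 CPM, from 6 and 2 LECs, and H2-Aa at 123 and 15.5 CPM, from 6 LECs in each library. Cd74, the invariant chain of class II assembly, stood at 481 and 33.2 CPM, a log2 ratio of -3.86 (-4.76 to -3.05). A single room air LEC held 40 Cd74 UMIs, and the next highest held 14.

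In the other endothelial cells the class II genes were also lower in hyperoxia, with log2 ratios of -1.46 for H2-Ab1, -1.28 for H2-Eb1, -1.33 for H2-Aa and -0.79 for Cd74. A stricter endothelial gate gave -2.68 for H2-Ab1. Whether LECs and other endothelial cells differed in this was not tested. Without the deepest LEC of each library the LEC value for H2-Ab1 was -5.80, and without the 6 mixed cells it was -5.33. The 7 measured lymphocyte markers summed to 17.6 CPM in room air LECs and 13.3 CPM in hyperoxia, found in 1 of 12 and 5 of 46 LECs, and the 8 myeloid markers, Mrc1 among them, to 129 and 401 CPM against 5766 and 5677 CPM in all other kept cells.

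Immediate early and heat shock genes, which respond to dissociation of tissue, had 19 of 20 members tested, none at least 2-fold higher and 1 at least 2-fold lower, with a median log2 ratio of -0.26. Hspa8, a constitutive heat shock protein, stood at 1637 and 1368 CPM, Zfp36, an mRNA decay factor, at 123 and 219 CPM, and Atf3, a stress factor, at 217 and 73.1 CPM. The median was 0.31 without the deepest LEC of each library, when 4 members were at least 2-fold higher, so it had no direction that held. Of 14 cell cycle genes a single member was tested, Hmgb2, a chromatin protein, at 135 and 224 CPM. A single hyperoxia LEC held 56.4% of the hyperoxia Hmgb2 UMIs, and the log2 ratio of 0.73 was -0.62 without the deepest LEC of each library and -0.27 without the 6 mixed cells, so it had no direction that held.

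Basement membrane and matrix genes had 13 of 22 members tested, none at least 2-fold higher, 3 at least 2-fold lower, and a median log2 ratio of -0.01. Without the 6 mixed cells 2 were at least 2-fold higher and 2 at least 2-fold lower, with a median of 0.15. Timp3, an inhibitor of metalloproteinases, stood at 951 and 1698 CPM, a log2 ratio of 0.84 (0.59 to 1.09), and of -0.06 without the 6 mixed cells and the deepest room air LEC, against 456 and 1892 CPM in the other endothelial cells, a log2 ratio of 2.05. Col4a1, a collagen of basement membranes, stood at 945 and 1503 CPM. Sparcl1, a matricellular protein, stood at 246 and 6.64 CPM with 3 UMIs in hyperoxia LECs, a log2 ratio of -5.21 (-7.55 to -3.57). Hypoxia and glycolysis genes had 7 of 18 members tested, 2 at least 2-fold higher and 1 at least 2-fold lower, with Ndrg1 at 364 and 372 CPM and the glycolytic enzyme Pkm at 82.2 and 226 CPM.

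**Figure D4:**
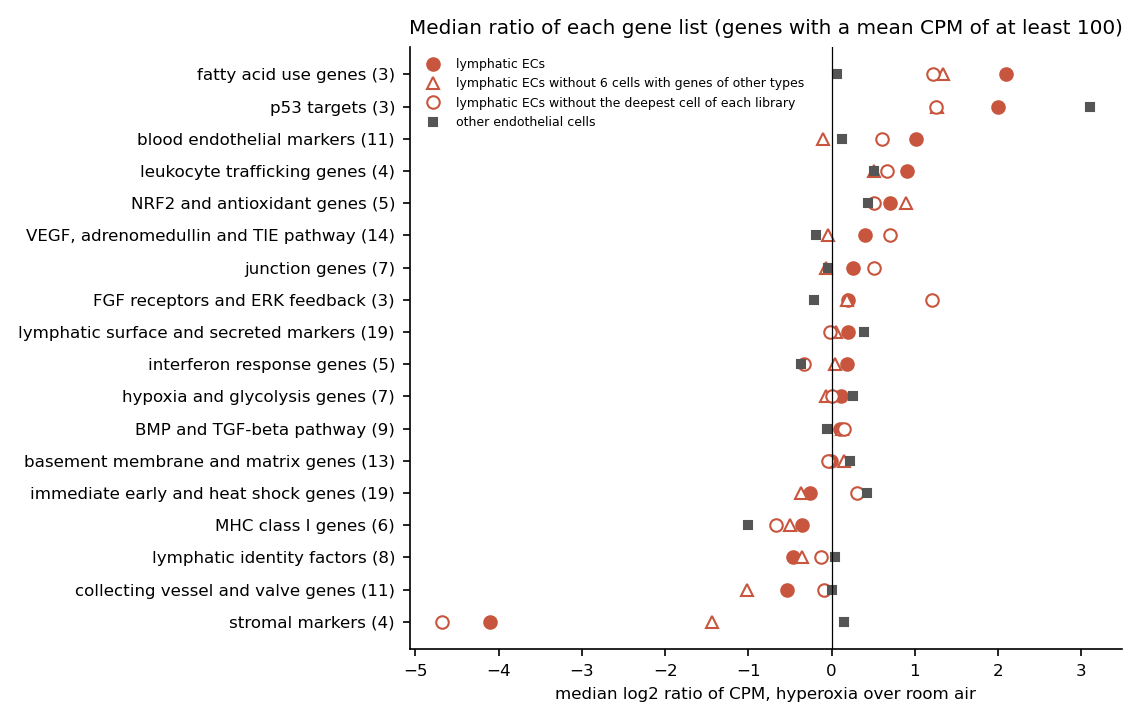
Median log2 ratio of hyperoxia to room air for each gene list (points, with the number of members tested), for all LECs, for LECs without the 6 mixed cells, for LECs without the deepest cell of each library and for the other endothelial cells. The p53 targets had medians of 2 in LECs and 3.1 in the other endothelial cells, and fatty acid use genes of 2.1 and 0.06. The filter on level fixed the sign of the LEC median of 2.1 through 2 of 3 members.

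Markers of other cells differed between the libraries. For the blood endothelial, stromal and erythroid lists this rested largely on the 6 mixed cells. Blood endothelial markers had 11 of 25 members tested, 6 at least 2-fold higher in hyperoxia and 2 at least 2-fold lower, with a median log2 ratio of 1.02 and of -0.10 without the 6 mixed cells. Ptprb, a phosphatase of TIE receptors, stood at 258 and 494 CPM, Emcn, the venous and capillary sialomucin endomucin, at 41.1 and 208 CPM, Tbx2, a T-box factor, at 176 and 55.4 CPM, and Cd34 at 70.4 and 290 CPM. Without the 6 mixed cells the log2 ratio of Cd34 changed sign. The 8 stromal markers summed to 2594 CPM in room air LECs and 204 CPM in hyperoxia, and to 372 and 237 CPM without the 6 mixed cells. The summed erythroid markers were 17.6 and 124 CPM and the mesothelial markers 5.87 and 2.21 CPM. Without the 6 mixed cells the erythroid sums were 7.45 and 13.5 CPM. The epithelial markers summed to 428 and 888 CPM, against 34795 and 36578 CPM in all other kept cells.

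The 10 genes with the largest ratios, ranked by the interval bound nearest no change, were Mrc1, Fabp4, Lyve1, Ccnd1, Tspan7, Ctla2a, Aqp1, Tinagl1, Clec1a and 1700017B05Rik. Ccnd1, the G1 cyclin D1, had 3 UMIs in 2 of 12 room air LECs and 166 UMIs in 28 of 46 hyperoxia LECs, a log2 ratio of 4.38 (2.81 to 6.68). Its medians per cell were 0 and 1, with maxima of 2 and 35. The 35 UMIs lay in the deepest hyperoxia LEC, a mixed cell, and the other mixed hyperoxia cells held 4, 7 and 32. Shares of LECs with a Ccnd1 UMI were 16.7% (2.09 to 48.4) and 60.9% (45.4 to 74.9), which thinned to 2000 UMIs became 0% (0 to 28.5) and 31.8% (18.6 to 47.6), against unthinned shares of 5.03% and 7.69% in B cells. The other endothelial cells had Ccnd1 at 268 and 733 CPM, above the LECs of their library.

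Tspan7, a tetraspanin, had 2 UMIs in 2 room air LECs and 111 UMIs in 17 hyperoxia LECs, a log2 ratio of 4.39 (2.50 to 7.45). In the other endothelial cells, where it was at 604 and 575 CPM, the log2 ratio was -0.07. Aqp1, the water channel of capillary endothelium, stood at 93.9 and 465 CPM in LECs, a log2 ratio of 2.31 (1.57 to 3.14), and at 721 and 508 CPM in the other endothelial cells. Both genes were thus lower in LECs than in the other endothelial cells of each library, with the wider gap in room air, and without the 6 mixed cells their log2 ratios were 3.31 and 1.93.

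Tinagl1, a matricellular protein of basement membranes, stood at 35.2 and 210 CPM, a log2 ratio of 2.58 (1.40 to 4.06), against 2.48 in the other endothelial cells. Ctla2a, a cysteine protease inhibitor, stood at 129 and 773 CPM, a log2 ratio of 2.58, and of 1.36 (0.66 to 2.14) without the 6 mixed cells. Clec1a, a C-type lectin, stood at 46.9 and 241 CPM, but a UMI was found in 41.7% of room air LECs and 39.1% of hyperoxia LECs. Thinned to 2000 UMIs these shares were 9.09% (0.230 to 41.3) and 13.6% (5.17 to 27.4), with overlapping intervals. The transcript 1700017B05Rik had 0 UMIs in room air LECs and 26 in 17 hyperoxia LECs, at least 3.27-fold higher against a floor of 3 counts in the room air LECs together. The share of hyperoxia LECs with a UMI, 37.0% (23.2 to 52.5), was 6.82% (1.43 to 18.7) after thinning to 2000 UMIs, against 15.2% in B cells, 8.40% in the other endothelial cells and 3.57% in stromal cells, so its interval held the share of the other endothelial cells.

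The 10 genes with the smallest ratios were Gucy1a3, Cldn11, Anxa1, Ccdc141, Rassf10, Nupr1, Hgf, Fhl1, Ubash3b and Rassf9. The deepest LEC or another single room air LEC held 58.5% to 87.5% of the room air UMIs of each. Anxa1, a phospholipid binding protein that limits inflammation, stood at 516 and 66.4 CPM, a log2 ratio of -2.96 (-3.61 to -2.35), against 1.02 in the other endothelial cells, and it was -1.09 without the deepest LEC of each library. Hgf, the hepatocyte growth factor, stood at 99.8 and 8.86 CPM. Fhl1, a LIM domain protein of muscle, stood at 452 and 97.4 CPM, and without the 6 mixed cells its log2 ratio was 0.32. These ratios therefore describe a few deep or mixed cells.

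**Figure D5:**
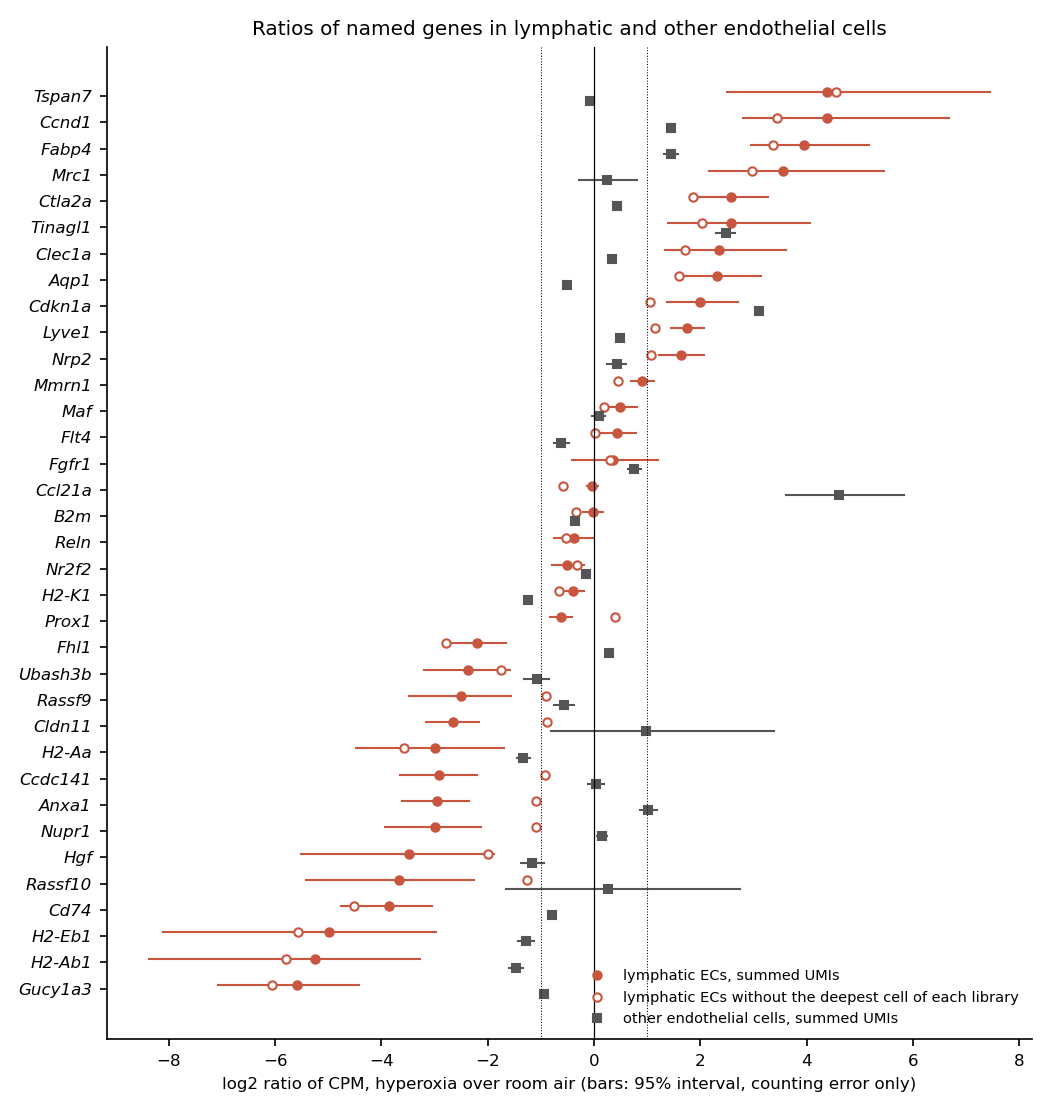
Log2 ratio of hyperoxia to room air for 35 named genes in LECs (filled points with 95% counting intervals), in LECs without the deepest cell of each library (open points) and in the other endothelial cells (grey squares). H2-Ab1 lies at -5.26 in LECs and -1.46 in the other endothelial cells, and Fgfr1 at 0.35 and 0.76.

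The LECs were not uniform, and the groups of cells described here were chosen after the values were seen. In room air 2 of 12 LECs (16.7%, 2.09 to 48.4) and in hyperoxia 17 of 46 (37.0%, 23.2 to 52.5) had no Ccl21a UMI. A Ccl21a UMI together with Mrc1 or Ptx3, genes of initial lymphatics, was found in 4 of 12 LECs (33.3%, 9.92 to 65.1) and 19 of 46 (41.3%, 27.0 to 56.8). The shares overlapped in their intervals. The 2 hyperoxia LECs with the most Ccl21a, 415 and 336 UMIs, also held 17 and 14 UMIs of Ptx3, 14 and 13 of Mrc1 and 61 and 40 of Nrp2.

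High Fabp4 was found mostly in LECs with little Ccl21a. Outside the mixed cells, 10 hyperoxia LECs (21.7%, 10.9 to 36.4) and no room air LEC had at least 10 Fabp4 UMIs, where 0 of 12 cells allows a share of up to 25%, that of 3 counts of 12. Of these 10 cells 4 held a Ccl21a UMI, with a maximum of 32, and 2 held Ptx3. Among the other 32 hyperoxia LECs outside the mixed cells, 25 held Ccl21a, with a maximum of 415, and 17 held Ptx3.

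Outside the mixed cells, 4 hyperoxia LECs (8.70%, 2.42 to 20.8) carried at least 2 of Marco, Itga2b, Clec4g and Madcam1, genes known from LECs of lymph node sinuses, and no room air LEC did, which again allows up to 25% by 3 counts of 12. The high Glycam1 cells were likewise seen only in the hyperoxia library, and whether that library included lymph node tissue was not tested. The mixed hyperoxia cell with Pf4 also held Itga2b and Clec4g and was not counted. All 4 lacked Ccl21a and held Lyve1, Mrc1 and Stab2. Compared with the 29 hyperoxia LECs that held Ccl21a, their level of Csf1, the macrophage growth factor, was 411 against 0 CPM, and that of Il33, an alarmin, 462 against 0 CPM. Clu, the chaperone clusterin, stood at 1285 against 16.7 CPM, Vcam1, an adhesion molecule, at 325 against 4.17 CPM, and Cxcl10, an interferon-induced chemokine, at 394 against 0 CPM. H2-Q7, a nonclassical MHC class I gene, stood at 1593 against 87.7 CPM. In the other direction Fgl2 stood at 34.3 against 2008 CPM, Ptx3 at 0 against 518 CPM and Prss23, a serine protease, at 0 against 1211 CPM. The comparison cells were chosen for Ccl21a, so these values do not separate the 4 from other LECs without it. A further hyperoxia LEC without Ccl21a held 8 UMIs of Csf1, 5 of Clu and 23 of Stab2. Ptx3 was detected in 3 of the 17 hyperoxia LECs without Ccl21a. Without the 4 LECs with genes of lymph node sinuses the log2 ratio of hyperoxia to room air was 3.57 for Mrc1 and 1.58 for Lyve1, close to the values with them.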

How the data were processed

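The authors aligned 10x Genomics reads to mm10, used Cell Ranger to count the UMIs of each gene in each barcode, and deposited the whole-number counts as matrices of 4234 and 13223 barcodes. The submitters' processing notes name Cell Ranger 2.1.1, the protocol 6.1.1 and a kit v2, and the matrix header 3.1.0. The study's methods give 6.1.1 with a later kit version, so both the software version and the kit are uncertain. Whether doublets or free RNA were removed is not given in the sources used here.

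Of the barcodes, 345 and 1026 had under 500 genes, and 80 and 486 of the rest had over 20% mitochondrial UMIs. The LEC gate and all lists were chosen with earlier results of these data known. UMIs were summed over the LECs of each library and divided by their total (CPM), and genes with a mean of at least 100 CPM were compared at a fixed fold of 2 (Python 3.11.15, numpy 2.4.6, scipy 1.17.1, pandas 2.3.3). Ratios have exact conditional Poisson intervals and shares exact Clopper-Pearson intervals, both for counting error only. In counts simulated from the Poisson model that the intervals assume, the 95% ratio intervals held the true value for 96.7% of genes. The simulation had no spread between cells, so it does not give their coverage for these uneven LECs. The floor of 3 counts is 17.6 CPM in room air LECs and 6.64 CPM in hyperoxia LECs.

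B cells (Cd79a and Ms4a1, 159 and 572 cells) and stromal cells (at least 2 UMIs of Col1a2, 594 and 1657 cells) gave the background of free RNA. Doublets were simulated and scored by nearest neighbours (scikit-learn 1.9.0). Named are the gate genes, the members of each list with the most UMIs and the largest and smallest ratio, the 20 leading genes against the other endothelial cells, and the 10 largest and 10 smallest ratios among genes with at least 20 UMIs that, where higher, were in at least 1 of 3 LECs and not below all other kept cells. Further members of the lists, the MHC class II genes and the genes of groups of cells were chosen after their values were seen. Positions and sequences are from GENCODE M21 on GRCm38, which held 415 of 416 named identifiers. Alternatives changed the cell filter, gate, scaling, depth, weight of cells and filter on low values.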

Additional observations from a re-analysis of the deposited data

Results flagged for a closer look

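For 5 genes among the largest and smallest ratios the log2 ratio of hyperoxia to room air had opposite signs in LECs and in the other endothelial cells, each being 1 library per condition, and the difference was not tested. Tspan7 was 4.39 in LECs and -0.07 in the other endothelial cells, and Aqp1 was 2.31 and -0.50. In the other direction Anxa1 was -2.96 in LECs and 1.02 in the other endothelial cells, Nupr1, a stress-responsive chromatin protein, was -2.99 and 0.15, and Fhl1 was -2.21 and 0.29. The deepest room air LEC held 81.8% of the Anxa1 UMIs and 82.2% of the Nupr1 UMIs in room air, and another room air LEC, a mixed cell, held 83.1% of the Fhl1 UMIs. For Tspan7 and Aqp1, 17 and 25 of 46 hyperoxia LECs held a UMI. Of the 111 Tspan7 UMIs in hyperoxia, 40 lay in the 4 LECs with genes of lymph node sinuses (685 CPM) and 5 in the 29 LECs with Ccl21a (20.9 CPM, against 11.7 CPM over the room air LECs). Without those 4 cells the Tspan7 log2 ratio was 3.94. Leaving out the 6 mixed cells lowered it further, as given above, and no value here leaves out both sets of cells.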

How the results depend on the processing

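No paired analysis was possible because each condition is 1 library. The 12 room air LECs limit every comparison, and no alternative stands for spread between mice. The 104 genes at least 2-fold higher in hyperoxia and the 117 genes at least 2-fold lower in hyperoxia became 461 and 238 in LECs with no UMI of 6 stromal genes (2 and 14 cells), 260 and 282 at a mean of at least 50 CPM, 31 and 44 at 200 CPM, and 1141 and 1785 with no filter on low values. The shares of LECs kept their direction except where Ccl21a was required. Of 1491 log2 ratios of 89 genes under alternatives, 1202 stayed within their counting interval, 250 moved beyond it and 39 changed sign where the reported interval left out 0. Causes were not tested.

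With equal weight for each cell the log2 ratio changed sign for Prox1 (0.30), Gja4 (0.03), Nts (0.14), Foxc2 (0.09), Flt4 (-0.42) and the valve list median (0.06). Without the deepest LEC of each library it did so for Prox1 (0.39) and Hmgb2 (-0.62). In LECs with no UMI of 6 stromal genes it did so for Fhl1 (0.83), Gja4 (0.51), Nupr1 (0.10), Bst2 (-0.71) and Hspa8 (0.20), and with an endothelial gate of at least 2 for Fhl1 (0.16). With Ccl21a required it did so for Reln (0.07), Zfp36 (-0.01), Hmgb2 (-0.55) and Nrp1 (-1.28), with a gate sum of at least 5 for Hmgb2 (-0.40) and Nrp1 (-1.80), with all 3 gate genes for Hmgb2 (-0.33) and Nrp1 (-1.57), and with simulated doublets removed for Hmgb2 (-0.38).

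Further alternatives were chosen after seeing the data. Without the 6 mixed cells the sign changed for Cd34 (-0.10), Fhl1 (0.32), Hmgb2 (-0.27), Nrp1 (-0.15) and the blood endothelial median (-0.10). Without these and the deepest room air LEC it changed for Prox1 (0.08), Cd34 (-1.04), Ccdc141 (0.53), S1pr1 (-0.02), Gja4 (0.28), Adm (0.40), Nupr1 (1.5), Timp3 (-0.06), Hmgb2 (-0.58), Bst2 (-0.32), Foxc2 (0.18), Nrp1 (-1.08), Flt4 (-0.32) and the valve list median (0.05). Thinned to 2000 UMIs, the share of LECs with Hgf was 0% in room air and 2.27% in hyperoxia, against 33.3% and 2.17% unthinned. Without the 4 LECs with genes of lymph node sinuses no such ratio changed sign.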
